A study of Mus musculus with 2 samples.

Results

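The mir-30 family of the mouse is encoded by 6 microRNA genes that lie as neighbouring pairs at 3 loci: Mir30a with Mir30c-2, Mir30b with Mir30d, and Mir30c-1 with Mir30e. The members were chosen by gene symbol, and all 6 were found among the 2202 annotated microRNA genes with counts. The samples were 2 libraries of small RNA (below 30 nt) from the hippocampus of female B6CASTF1/J mice, a first-generation hybrid of C57BL/6J and CAST, at 10 days of age. They form 1 group with no treatment and no altered allele. By its label each library came from a separate set of 3 females under a shared donor entry, so its values are those of pooled animals. The labels name the tissue as a layer of hippocampus without saying which layer. In such bulk tissue fewer cells of a type and less RNA per cell cannot be told apart.

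A microRNA gene is transcribed as a hairpin, which is cut to a short duplex, and either arm of the duplex (the 5p or the 3p arm) can be loaded into an Argonaute protein. The seed, bases 2 to 8 of the mature strand, pairs with sites in messenger RNAs, and pairing lowers translation and stability of the message. The mir-30 family is conserved across vertebrates and found in many tissues, including kidney, heart and brain. Targets reported for its 5p strands include Becn1, which acts in autophagy, and Bdnf, a neurotrophin.

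The mature strands are shown because shared sequence decides what the members have in common and which reads can be assigned to only 1 of them. They are from RefSeq on GRCm38.p6, with entries for 4 of the 6 members: Mir30a, Mir30c-2, Mir30c-1 and Mir30e. Mir30b and Mir30d are given by name. Sequences run from 5′ to 3′, with the seed in capitals. The 5p strands, with that of Mir384, a microRNA gene outside the family by name, were these.
miR-30a-5p: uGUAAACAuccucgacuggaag
miR-30e-5p: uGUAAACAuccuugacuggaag
miR-30c-5p: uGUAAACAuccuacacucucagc
miR-384-5p: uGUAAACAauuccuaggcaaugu
The seed was the same in all of them, and it occurred in 5 of 1738 mature entries of the table (0.288%). Counting from 1 at the 5′ end, the strand of Mir30e differed from that of Mir30a by the single substitution C13U. The miR-30c-5p sequence was identical for Mir30c-1 and Mir30c-2, which account for 2 of the 5 entries.

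Among the same 4 members the 3p strands had a pair of seeds, 1 in Mir30a and Mir30e and 1 in the Mir30c genes.
miR-30a-3p: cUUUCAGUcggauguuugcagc
miR-30e-3p: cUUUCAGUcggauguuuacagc
miR-30c-1-3p: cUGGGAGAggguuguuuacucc
miR-30c-2-3p: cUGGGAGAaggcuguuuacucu
Here the strand of Mir30e differed from that of Mir30a by G18A, and the strand of Mir30c-2 from that of Mir30c-1 by G9A, U12C and C22U. All 3 of the latter changes lay outside the seed.

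The hairpins of the Mir30c genes shared an unbroken stretch of 28 nt, in capitals, that holds the whole 5p strand.
Mir30c-1: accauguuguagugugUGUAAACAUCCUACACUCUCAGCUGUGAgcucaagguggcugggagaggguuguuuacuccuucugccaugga
Mir30c-2: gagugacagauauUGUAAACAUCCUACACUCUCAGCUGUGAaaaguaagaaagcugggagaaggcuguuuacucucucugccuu
The longest stretch shared by the hairpins of Mir30a and Mir30e was 18 nt, and every other pair among these 4 members shared 12 nt. Of the 22-nt windows of each hairpin, 7 of 68 in Mir30c-1 and 7 of 63 in Mir30c-2 occurred in another of the 1005 hairpins of the table, against 0 of 50 in Mir30a and 0 of 71 in Mir30e. Such a window was present in 10.3% of all hairpins (14.8% of the 365 detected genes with a hairpin in the table). A read of miR-30c-5p matches both Mir30c genes, and the files hold reads with more than 1 match in a row of their own, outside every gene. The counts of Mir30c-1 and Mir30c-2 are therefore uncertain and may miss reads of that strand.

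Coordinates refer to the mm10 build (GRCm38), and gene models to GENCODE M21. On chromosome 1, Mir30a (ENSMUSG00000065405.3) lies at chr1:23272269-23272339 on the plus strand and overlaps no other gene. Mir30c-2 (ENSMUSG00000065567.1) follows 19361 nt further on, at chr1:23291701-23291784, wholly within an exon of the long non-coding RNA gene Gm27028. On chromosome 15, both genes are on the minus strand. Mir30d (ENSMUSG00000065437.1) lies at chr15:68341208-68341289 within an exon of the long non-coding RNA gene Gm20732, and its last 9 nt also overlap Gm37296. Mir30b (ENSMUSG00000065476.2) lies 3697 nt away at chr15:68337415-68337510, and 16 nt of it overlap an exon of Gm26621. On chromosome 4, Mir30e (ENSMUSG00000065409.1) at chr4:120772606-120772697 and Mir30c-1 (ENSMUSG00000065490.1) at chr4:120769534-120769622 are 2983 nt apart. Both are in introns of Nfyc, on its strand, a gene that encodes a subunit of the nuclear transcription factor Y.

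Replicate 1 held 5479267 sense-strand counts on microRNA genes and replicate 2 held 3563226, and reads that matched several places made up 43.2% and 39.3% of all reads. Levels are counts per 1000000 of these sense counts (CPM). They are not divided by gene length, because microRNA reads cover a mature strand whatever the length of the annotated hairpin, and each gene's count pools its 5p and 3p strands. Means are given ± SD with n = 2 libraries, and the SD measures the spread between these libraries, animals and preparation together. Reads carry no molecular identifiers in these files, so exact intervals cover counting error only. All 6 members passed the detection minimum of 10 counts in each library, which 19.5% of all 2202 genes did, and each also had at least 100 counts in each library. The median mean level of the members was 1447 CPM, against 87.8 CPM over the 429 detected genes.

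At the chromosome 15 locus, Mir30d was the most abundant member in both libraries. It had 70640 counts (12892 CPM) in replicate 1 and 17914 counts (5027 CPM) in replicate 2, a mean of 8960 ± 5561 CPM (SD, n = 2). Its rank among all genes was 18 in replicate 1 and 40 in replicate 2. Its partner Mir30b had 715 counts (130.5 CPM) and 582 counts (163.3 CPM), a mean of 146.9 ± 23.2 CPM (SD, n = 2). Within replicate 1 there were 98.8 counts of Mir30d for each of Mir30b, and within replicate 2 there were 30.8. In replicate 1 this was the widest gap between partners at the 3 loci.

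At the chromosome 1 locus, Mir30a had 19872 counts (3627 CPM) in replicate 1 and 10614 counts (2979 CPM) in replicate 2, a mean of 3303 ± 458 CPM (SD, n = 2). Mir30c-2 had 1326 counts (242.0 CPM) and 736 counts (206.6 CPM), a mean of 224 ± 25.1 CPM (SD, n = 2). The ratio of Mir30a to Mir30c-2 was 15.0 in replicate 1 and 14.4 in replicate 2, the closest between libraries of the 3 loci. These ratios may be too high, since the Mir30c-2 count may miss reads shared with Mir30c-1.

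At the chromosome 4 locus, Mir30e had 9493 counts (1733 CPM) in replicate 1 and 12846 counts (3605 CPM) in replicate 2, a mean of 2669 ± 1324 CPM (SD, n = 2). Mir30c-1 had 832 counts (151.8 CPM) and 426 counts (119.6 CPM), a mean of 136 ± 22.8 CPM (SD, n = 2). There were 11.4 counts of Mir30e for each of Mir30c-1 in replicate 1 and 30.1 in replicate 2, where this ratio and that of Mir30d to Mir30b did not differ beyond counting error. Mir30e was the member that was higher in replicate 2 by the most, while its partner was lower there. The Mir30c-1 count may miss reads shared with Mir30c-2, so the ratios of Mir30e to Mir30c-1 may be too high.

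**Figure D1:**
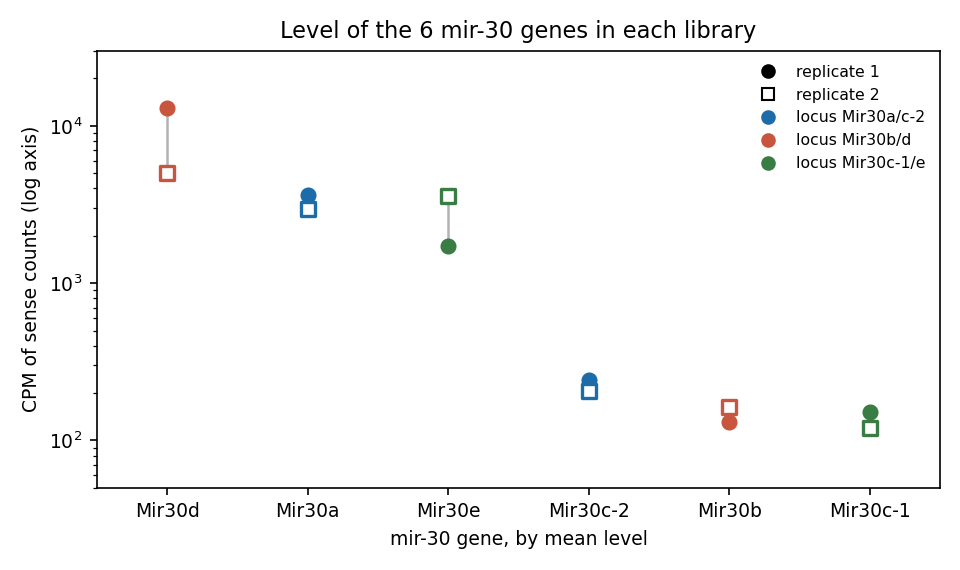
Level of each mir-30 gene in replicate 1 and replicate 2, in CPM on a log axis, with genes ordered by mean level and coloured by locus. Each locus holds 1 gene above 1000 CPM and 1 gene below 300 CPM in both libraries. The levels of Mir30c-1 and Mir30c-2 may be too low, since their counts may miss reads that match both genes.

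The order of the levels held in part. Mir30d was above the other members in both libraries. Mir30a exceeded Mir30e by 2.09-fold in replicate 1 and was at 0.826 times its level in replicate 2, so these neighbours in the order are not separated. Mir30c-2 was above Mir30c-1 and Mir30b in both libraries, by 1.59-fold and 1.73-fold for Mir30c-1. Mir30c-1 and Mir30b changed places, with a ratio of 1.16 in replicate 1 and 0.732 in replicate 2. Each of the higher 3 genes exceeded each of the lower 3 in assigned counts in both libraries. The lower 3 include Mir30c-1 and Mir30c-2, whose counts may miss reads that match both, so their place in the order is uncertain.

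Summed, the family took 1.88% of the sense counts in replicate 1 (exact Clopper-Pearson 95% interval 1.87% to 1.89%) and 1.21% in replicate 2 (1.199% to 1.221%), a mean of 1.54 ± 0.472% (SD, n = 2). The Mir30b and Mir30d locus held 69.4% of the family's counts in replicate 1 and 42.9% in replicate 2. The Mir30c-1 and Mir30e locus held 10.0% and 30.8%, and the Mir30a and Mir30c-2 locus 20.6% and 26.3%. Nearly all counts assigned to each locus came from its higher gene. Mir30d made up 99.0% and 96.8% of its locus, Mir30a 93.7% and 93.5%, and Mir30e 91.9% and 96.8%. The counts of Mir30c-2 and Mir30c-1 may miss reads that match both genes, so the shares of Mir30a and Mir30e may be too high. By assigned counts the family was thus mostly Mir30d in replicate 1, at 68.7% (68.4% to 68.9%). In replicate 2 it was divided among Mir30d at 41.5%, Mir30e at 29.8% and Mir30a at 24.6%. The family's share of the sense counts, and every share within the family, likewise cover assigned reads only. The exact intervals make no allowance for reads that may be missed.

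**Figure D2:**
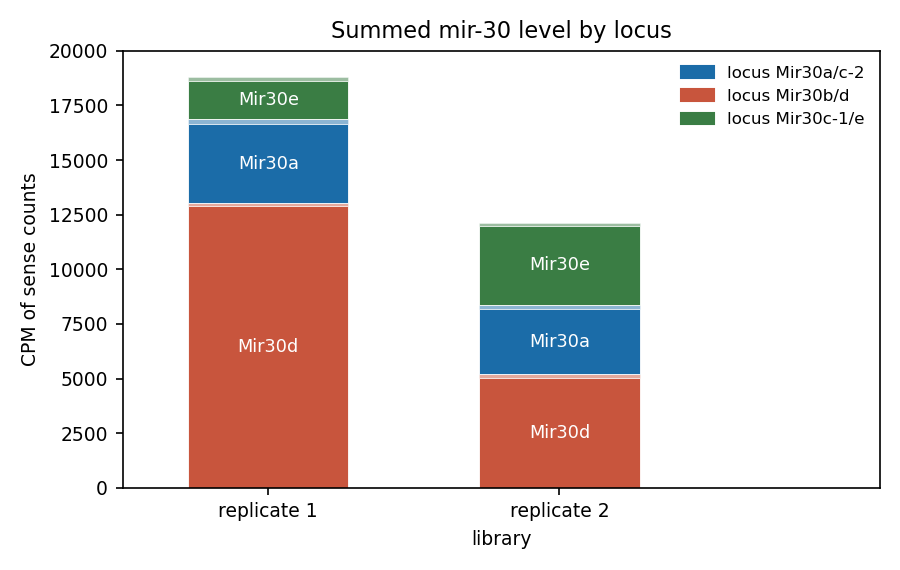
Level of the 6 genes in each library, in CPM of sense counts, as stacked bars coloured by locus. The bars reach 18776 CPM in replicate 1 and 12101 CPM in replicate 2. As a share of the family's assigned counts, Mir30d falls from 68.7% in replicate 1 to 41.5% in replicate 2, and Mir30e goes from 9.23% to 29.8%. Reads that match both Mir30c genes may be missing from the bars.

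The design has no contrast of conditions, so the members were compared between the libraries of the single group. The test of each detected gene was an exact binomial test, two-sided, on TMM-scaled library sizes, with Benjamini-Hochberg adjustment over 429 genes at 0.05. The test compares these libraries and counts only sampling error. It called 6 of 6 members, against 61.3% of all genes tested and 88.9% of the 207 genes that averaged 500 counts or more, so a call by itself does not set the members apart. In replicate 2, 2 members were higher (28.7% of all genes tested were) and 4 were lower (32.6% were). With the common spread of all genes added (edgeR common dispersion, a coefficient of variation of 0.311), 0 members passed the adjusted threshold and 4 of 429 genes did. At an unadjusted p under 0.05 in that fit there were 1 of 6 members and 24 of 429 genes.

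Mir30d had the largest difference, with a scaled log2 ratio of replicate 2 to replicate 1 of -1.42 (2.68-fold lower). It was the 1 member past 2-fold, as were 12.1% of all genes tested. Of the 429 detected genes, 23 had a larger absolute ratio, and 7 of the 182 that averaged 1000 counts or more did. Mir30e went the other way, with a log2 ratio of 0.99 (1.99-fold higher). A larger absolute ratio was seen in 52 of the 429 detected genes and in 14 of the 182. The adjusted p of both in the exact binomial test was too small for the computer to tell from 0. In units of the pooled standard error, which includes the common spread, the ratio was -2.24 for Mir30d and 1.57 for Mir30e.

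The other members moved less. In the exact binomial test the log2 ratio of Mir30a was -0.35 (adjusted p = 9.36e-90), that of Mir30c-2 was -0.29 (adjusted p = 2.49e-05) and that of Mir30c-1 was -0.41 (adjusted p = 4.40e-06). Mir30b was higher in replicate 2, with a log2 ratio of 0.26 (adjusted p = 0.00244). The median absolute log2 ratio of the 6 members was 0.38, beside 0.33 over all detected genes. It was 0.26 over the 182 genes that averaged 1000 counts or more, a level that Mir30b and Mir30c-1 did not reach. The summed family had a log2 ratio of -0.70, and its level fell by 6675 CPM. Mir30d alone fell by 7865 CPM and Mir30a by 648 CPM, while Mir30e was higher by 1873 CPM. Without Mir30d the summed log2 ratio was 0.20, in the opposite direction.

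**Figure D3:**
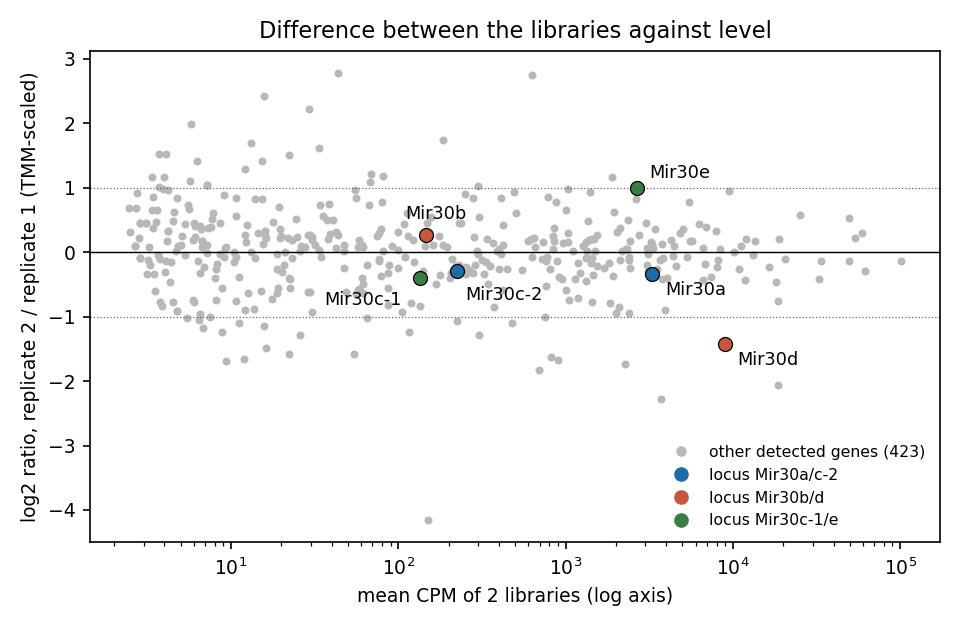
Scaled log2 ratio of replicate 2 to replicate 1 against mean CPM (log axis) for the 429 detected genes, with the mir-30 members marked. Mir30d lies at -1.42 and Mir30e at 0.99, and the other 4 members lie between -0.41 and 0.26.

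Partners at a locus did not share 1 library difference in every case. The log2 ratios of Mir30a and Mir30c-2 differed by 0.06, those of Mir30c-1 and Mir30e by 1.40, and those of Mir30b and Mir30d by 1.68. For scale, 113 other pairs of adjacent detected microRNA genes on the same strand and at most 25 kb apart had a median absolute difference of 0.36. Of these, 108 differed by more than Mir30a and Mir30c-2, 11 by more than Mir30c-1 and Mir30e, and 5 by more than Mir30b and Mir30d. These counts use no scaling factor, since a ratio of partners within a library cancels it. The other pairs are not independent. A gene inside a cluster forms a pair with each of its neighbours, and large clusters give many of the pairs. The values for the pairs with Mir30c-1 and with Mir30c-2 rest on counts that may miss reads of the shared 5p strand, as above.

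**Figure D4:**
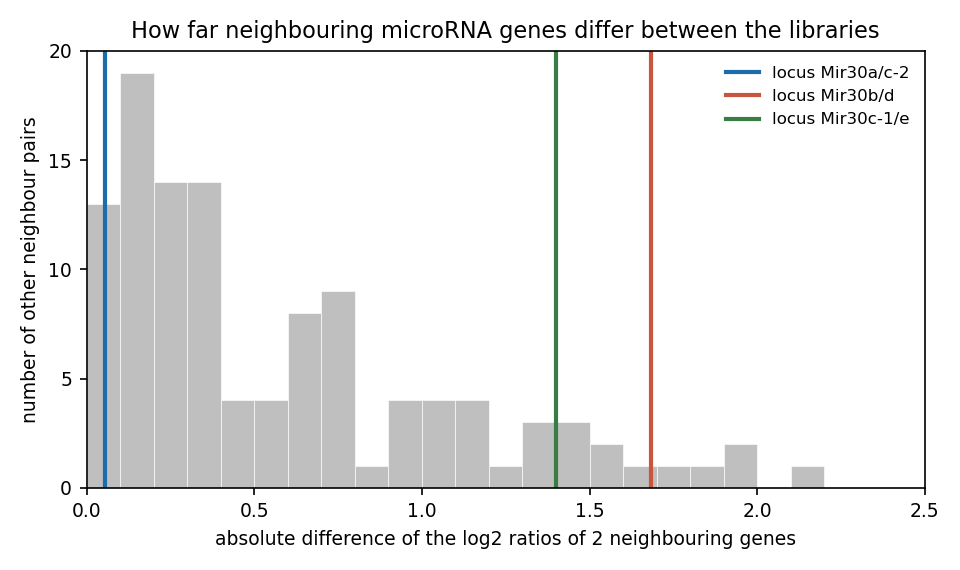
Number of adjacent microRNA gene pairs by the absolute difference between partners in the log2 ratio of replicate 2 to replicate 1, for 113 other pairs, with the 3 mir-30 pairs marked by lines. Mir30a and Mir30c-2 lie at 0.06, below most pairs, and the other mir-30 pairs lie at 1.40 and 1.68. The counts of Mir30c-1 and Mir30c-2 may miss reads that match both genes.

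All counts on the members were on the sense strand, with 0 antisense counts on each of the 6 in both libraries. Mir30f (ENSMUSG00000105585.1), the only other microRNA gene annotated within 10 kb of a member, occupies the interval of Mir30e on the plus strand. Its mature strand is shown for the overlap, with the seed in capitals.
miR-30f: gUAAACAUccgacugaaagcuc
In position 19 of its bases lie opposite the 3p strand of Mir30e, and its seed is not the family's. Mir30f had 0 sense counts in both libraries. The limit that a count of 0 allows, taken as 3 counts of the total, is 0.548 CPM in replicate 1 and 0.842 CPM in replicate 2, while the upper ends of the two-sided exact 95% intervals are 0.673 and 1.03 CPM. In the unstranded counts of the same files Mir30e itself stood at 0 in both libraries, and reads there overlap annotated genes on both strands. The sense counts are therefore the ones that show Mir30e.

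The genes outside the family with the most similar levels, by Euclidean distance in log2(CPM + 1) over both libraries, were found for the top 2 members. For Mir30d they were Mir342 (8246 and 6619 CPM, distance 0.757) and Mir151 (7525 and 5793 CPM, distance 0.803). Neither was as far apart between libraries as Mir30d. For Mir30a they were Mir328 (3333 and 2856 CPM, distance 0.136) and Mir378a (3753 and 3270 CPM, distance 0.143).

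The mir-181 family, which also has 6 genes in pairs at 3 loci, took 1.29% and 1.32% of sense counts in replicates 1 and 2, a mean of 1.30 ± 0.0228% (SD, n = 2), with a summed log2 ratio of -0.03. The mir-29 family took 0.117% and 0.215%, with a log2 ratio of 0.81. The difference between the families was not tested. Mir181a-1 with Mir181a-2, Mir181b-1 with Mir181b-2 and Mir29b-1 with Mir29b-2 are numbered copies of 1 mature name. Reads that match both copies would lie outside every gene. The shares of these families, as of mir-30, therefore cover assigned reads only, and how much each family misses is not known. As a background for the Mir30c genes, 24 genes that also carry a numbered copy of 1 mature name were all detected, with a median of 188 CPM, between the means of Mir30c-1 and Mir30c-2.

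Markers of the cell types that the tissue could hold were summed in each library. The neuronal list, of which 6 of 8 genes were detected, stood at 23059 and 24969 CPM. Of the 6, 5 were called higher in replicate 2 and 1, Mir132, lower (8514 and 7545 CPM). Of all genes tested, 28.7% were called higher and 32.6% lower, by a test that counts only sampling error. Mir128-1 stood at 6330 and 6945 CPM, Mir138-1 at 4296 and 5752 CPM, Mir137 at 3904 and 4643 CPM and Mir153 at 10.6 and 76.3 CPM. The Mir124a copies had between 3 and 20 counts each. Reads that match more than 1 of these copies would lie outside every gene, so these counts may be too low. The same may hold for Mir128-1, Mir138-1 and, among the oligodendrocyte markers, Mir219a-2. Each of them has another numbered copy of its mature name, so the sums of these lists may be too low. Lists for oligodendrocytes (1543 and 2024 CPM), microglia and myeloid cells (1189 and 964 CPM), endothelium (8303 and 7986 CPM), smooth muscle (3453 and 3152 CPM) and choroid plexus and ependyma (4881 and 4705 CPM) were present with every gene detected. So was the astrocyte list (2297 and 2315 CPM), in which Mir29a stood at 943.0 and 1874 CPM and Mir21a at 1354 and 440.9 CPM. Blood (55.5 and 64.3 CPM, 3 of 3 genes detected), kidney and other epithelium (132 and 125 CPM, 3 of 4) and muscle (47.1 and 103 CPM, 2 of 3) were low. In the epithelial list Mir200c stood at 15.9 and 51.1 CPM, Mir203 at 108.8 and 64.3 CPM, and Mir194-1 had 2 and 0 counts. By scaled ratio, the sums of 9 of the 10 lists differed between libraries by 1.04- to 1.29-fold and muscle by 2.1-fold, beside 2.68-fold for Mir30d and 1.99-fold for Mir30e. The sums hide larger differences of single markers in opposite directions, as in the astrocyte and epithelial lists. The part of these markers in the differences of Mir30d and Mir30e was not tested.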

How the data were processed

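For each library the authors deposited 1 file of raw counts of reads on microRNA genes, made on mm10 with GENCODE M21, per the notes deposited with the files. For the aligner, counter and filters of reads, names were not given in the sources used here. Sense counts were used. All 2202 gene rows matched GENCODE M21. Rows without a gene were left out of library sizes: multiple matches (43.2% and 39.3% of reads in replicates 1 and 2), unmapped (14.2% and 18.0%) and outside microRNA genes (6.16% and 5.17%). The libraries differed by a chi-square of 273.6 per gene and were kept as 2 samples.

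CPM used sense totals. Ratios added 0.5 counts and used TMM factors (0.979 and 1.02; edgeR 4.0.16 in R 4.3.3). DESeq2 1.42.0 size factors were an alternative. The exact binomial tests used scipy 1.17.1 and were tested on simulated counts. These held set 2-fold changes and sampling error only, so that check does not cover the further spread between the real libraries. Sequences were compared by exact match within the RefSeq table.

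Members, lists and tests were chosen with earlier results of these data known. The neighbour pairs, the 500-count background and the sums without Mir30d or Mir30e, and the calls over all genes with a common dispersion, were added after seeing the data. Named genes are the members, microRNA genes within 10 kb, host genes, the comparison families, the nearest 2 genes in level to each of the top 2 members, and single markers.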

Additional observations from a re-analysis of the deposited data

Results flagged for a closer look

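A signal was present in a column that the comparisons do not use: the counts on the strand opposite Mir30f were 9493 in replicate 1 and 12846 in replicate 2, while its sense count was 0 in both. These numbers equal the sense counts of Mir30e, which is annotated over the same interval on the other strand, so they are the Mir30e reads listed a second time under Mir30f.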

How the results depend on the processing

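Of 86 values recomputed under alternatives that use both libraries, 67 kept their direction and call or moved by less than the spread between libraries. Another 30 left out 1 library, and with 2 libraries such a value must lie within 1 SD of the mean, so they say nothing of stability. All 35 log2 ratios of single members kept direction and call with DESeq2 size factors, library totals, other count minimums, 5 counts added and, for members other than Mir30e, counts without regard to strand, where Mir30e had no reads to compare. The 5 added counts entered the ratio and not the test, so the call could not change there. Without regard to strand, the counts of members other than Mir30e equal their sense counts, so only the scaling differed. Adding the antisense counts of the members, all 0, could not change the family share. Lowering the detection minimum to 1 count could not lower the number of members detected. The 67 kept values include these. The family share was 0.569% with all reads as the denominator, beside 1.54% of sense counts, and ranged from 1.21% to 1.88% with 1 library left out. The summed family log2 ratio was 0.20 without Mir30d, beside -0.70 with it. That value follows from the construction, since Mir30d fell by 7865 CPM and the whole family, on balance, fell by 6675 CPM. With the edgeR common dispersion added, 0 of 6 members and 4 genes were called, beside 6 and 263. Depth limited no member's detection, and the spread between 2 libraries set the precision. A search of the genome for further copies of the mature strands was not run. No paired analysis was possible because the series has 1 group.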

Other observations

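Mir384 (ENSMUSG00000065499.1), a gene outside the family by name, carries the 5p seed of the mir-30 family, as printed with the mature strands, and was picked out after this match was seen. It had 1011 counts (184.5 CPM) in replicate 1 and 728 counts (204.3 CPM) in replicate 2, a mean of 194 ± 14.0 CPM (SD, n = 2), within the range of the lower 3 members. Its log2 ratio between libraries was 0.09 (adjusted p = 0.31, exact binomial test).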
